A study of Rattus norvegicus with 12 samples.

Results

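The genes of the mitochondrial respiratory chain and ATP synthase were chosen by symbol: every probe set with a single annotated rat symbol that starts with Nduf, Sdh followed by a, b, c or d, Uqcr, Cox4 to Cox8, or Atp5. The rule gave 90 of the 14218 named genes on the array, measured by 101 of its 31099 probe sets, and 1 probe set per gene was used, that with the highest mean signal. Sorted by complex, there were 6 genes for core and 28 for accessory subunits of complex I, and 4 for complex II. Complex III had 7, complex IV 19 and complex V (the ATP synthase) 16, and 10 were assembly factors. The 19 include Ndufa4 and Ndufa4l2, in spite of their symbols, and Cox6c-ps1, a pseudogene by its symbol. Another 7 probe sets annotated to a member together with another gene were left out, and Cox7a2 was not measured by a probe set of its own.

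The respiratory chain passes electrons from NADH (complex I) and succinate (complex II) through complexes III and IV to oxygen. The energy released pumps protons across the inner mitochondrial membrane, and complex V uses their return to make ATP. Heart muscle depends on this route more than almost any other tissue, and several complex IV subunits have a heart and muscle isoform beside a more general one. Most subunits are encoded in the nucleus, and the nuclear genes are the ones named by the rule.

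The cells were primary ventricular cardiomyocytes of 1-day-old Wistar rats, enriched by their slower attachment to the dish, so other heart cells could remain. All cultures spent 24 h in reduced-serum medium before exposure for 3 h. The 8 groups were ethanol vehicle, cortivazol (CVZ, a synthetic glucocorticoid), corticosterone (COR, the main glucocorticoid of rats) and aldosterone (ALD, the main mineralocorticoid), each without and with a pretreatment of 10 µM RU486 (mifepristone, which blocks the glucocorticoid receptor). The groups without RU486 had 1 array in each of 2 experiments, while the 4 groups with RU486 had 1 array each, all in the second, giving 4 arrays in the first experiment and 8 in the second. The exposure was kept short, per the series' design text, to limit effects that follow from the first target genes. Doses of the ligands are not given in the sources used here, nor whether the experiments used separate cell preparations. The p-values thus speak of the spread among these arrays alone, which may be technical. That spread came from the groups without RU486, since a group of 1 array adds none. It was used for the comparisons with RU486 too.

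Signals were microarray intensities divided by each array's median, so that 1 is the median probe set of an array. The array medians before this division are not given. They were inferred as the smallest divisor that turns all values of an array back into values with 1 decimal. So inferred, they were 21.1 to 25.5 in the first experiment and 22.4 to 37.7 in the second, where the 4 arrays with RU486 (35.4 to 37.7) were brighter than the 4 without (22.4 to 33.7). The 3′ to 5′ ratio of Gapdh, a sign of RNA integrity, was 1.04 to 1.08 in the first experiment, 1.07 to 1.12 on the arrays of the second without RU486 and 1.13 to 1.18 on those with it. That of actin was 2.16 to 2.48 in the first experiment and 1.92 to 2.26 in the second. Summed signals of 10 cardiomyocyte markers were 2210 to 2400 in the first experiment, 2070 to 2330 in the second without RU486 and 1850 to 2070 with it, and all 10 were above the filter on low signals. Summed signals of 9 fibroblast markers were 367 to 449 in the first experiment and 178 to 204 in the second. Of the other markers, those of smooth muscle summed to 24.6 to 50.8 and those of endothelium to 6.56 to 26.8 over the 12 arrays. Those of macrophages summed to 5.68 to 9.93 and those of red cells to 28.1 to 125. Only 5 of 6 endothelial and 3 of 5 red cell markers had a probe set of their own. No marker was listed at 0, but Vwf, Cd163 and Slc4a1 were below the filter on low signals. In bulk samples, fewer cells of a type and less RNA per cell cannot be told apart. The glucocorticoid target genes Fkbp5 and Klf15 showed the treatments: Fkbp5 rose by 4.54 (log2) with CVZ, 3.87 with COR and 2.69 with ALD, and fell by 1.76 with RU486 (limma, adjusted p = 2.27e-11, 1.23e-10, 1.4e-08 and 1.65e-07), and Klf15 rose by 3.21, 2.62 and 1.77 and fell by 0.80. The falls with RU486 are averages over the vehicle, CVZ, COR and ALD backgrounds. RU486 alone did not lower either gene: both changes against vehicle were positive, with a median of 0.54. Klf15 was at 8.64 with RU486 alone, against 3.53 and 5.08 with vehicle. Fkbp5 was at 2.4, against 1.52 and 2.17.

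Of the 90 genes, 86 passed the filter on low signals and were tested. The 4 that did not were Cox4i2, Ndufa4l2, Cox6b2 and Cox7b2, isoforms known from lung, hypoxic cells or testis rather than from heart. Cox4i2 lay between 0.152 and 1.22 on the 12 arrays, and Ndufa4l2 between 0.0141 and 0.807, where 1 is the median probe set. The tested genes were among the bright ones: their median signal lay between 95.7 and 124 on every array. Abundant probe sets can shift together with the brightness of an array, so 328 tested probe sets of other genes with a mean between the lower and upper quartile of these genes (signals of 58.1 to 163) were followed beside them.

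On the arrays of the first experiment the median signal of the 86 genes was 121 with vehicle, 124 with CVZ, 116 with COR and 119 with ALD. In the second experiment it was 101 with vehicle, 116 with CVZ, 111 with COR and 109 with ALD. With RU486 it was 102 alone, 95.7 with CVZ, 98.9 with COR and 99.2 with ALD. The first experiment was thus high throughout, and in the second the 3 ligand arrays without RU486 were above the other 5. The probe sets of similar signal gave 98.8 to 102 in the first experiment, 82.6 to 85.8 with ligands in the second, and 76.3 to 83.6 on the other 5 arrays, where RU486 alone was the highest.

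**Figure D1:**
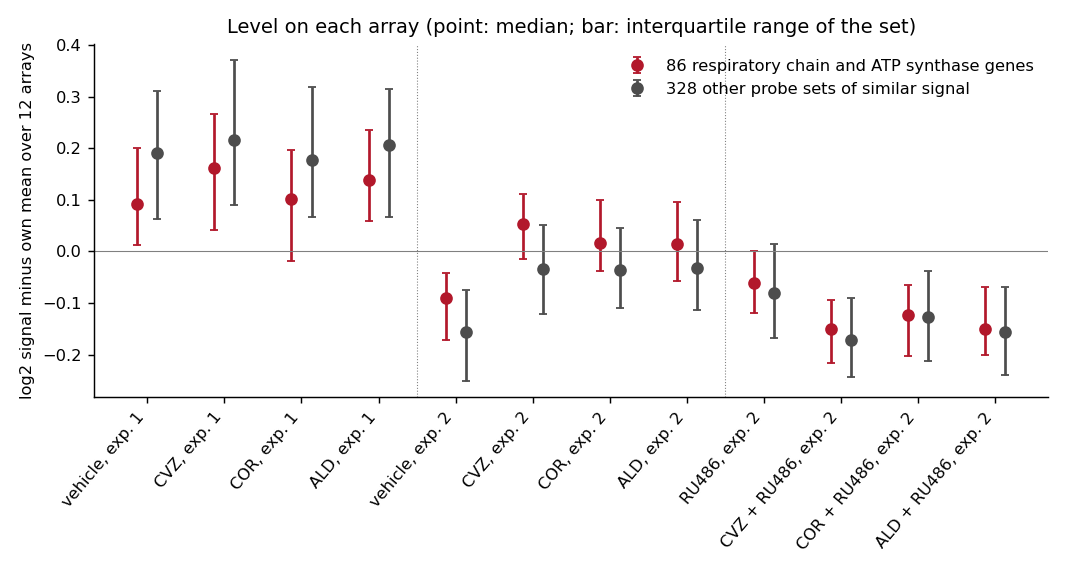
Deviation of each of the 12 arrays (horizontal axis, by group and experiment) from the mean over all arrays, as log2 signal, for the 86 genes and for 328 other probe sets of similar signal. Points are medians and bars the interquartile range of each set. Both sets were highest in the first experiment (medians of 0.09 to 0.16 and 0.18 to 0.22) and low on the 3 arrays with a ligand and RU486 (-0.15 to -0.12 and -0.17 to -0.13) and with vehicle in the second (-0.09 and -0.16).

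The first question was whether 3 h of a corticosteroid changes these genes. With CVZ, 1 of the 86 rose and none fell, against 7.96% of all 18625 tested probe sets called in either direction (4.77% rose) and 27 rises (8.23%) and 2 falls among the 328 of similar signal. With COR 2 rose and none fell, against a background of 3.39% (2.44% rose), with 11 rises (3.35%) and 1 fall among those of similar signal. With ALD none was called, against 0.95% of all tested and 4 rises among the 328 of similar signal, while 16 members had an unadjusted p under 0.05 in limma. At an unadjusted p under 0.05 there were 8 members with CVZ and 10 with COR.

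The median log2 change of the 86 genes was 0.09 with CVZ, 0.05 with COR and 0.08 with ALD, beside 0.07, 0.04 and 0.06 for the probe sets of similar signal and 0.01, 0.01 and 0.02 for all tested. With CVZ, 79 of the 86 changes were positive (91.9%), against 77.7% of those of similar signal and 51.1% of all. This side depended on the scaling of the arrays: the CVZ median was 0.03 with trimmed-mean scaling, 0.01 with quantile normalization and -0.02 with cyclic loess normalization. Cyclic loess also turned the COR median to -0.02 and left the ALD median at 0.01. Without the vehicle array of the second experiment the medians with CVZ, COR and ALD were 0.04, -0.01 and 0.02, and without that of the first 0.15, 0.09 and 0.13. The COR median was 0.11 without the COR array of the first experiment and -0.01 without that of the second. The medians also differed between the experiments. In the first, the medians were 0.04 with CVZ, -0.04 with COR and 0.04 with ALD, and in the second 0.14, 0.12 and 0.13, next to 0.04, -0.01 and 0.02, then 0.12, 0.11 and 0.13, for the probe sets of similar signal. The 3 ligand comparisons share their vehicle arrays. Of the cell type markers, Myh7 (1 of 10 for cardiomyocytes), Tcf21 (1 of 9 for fibroblasts) and Kdr (1 of 4 tested for endothelium) rose with CVZ, by 0.35, 0.95 and 1.83, and none fell. Kdr also rose with COR and ALD, by 2.00 and 1.41, with no other marker called, and the part of these markers in the medians was not tested.

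The intervals bound what could have been missed for single genes. Of the 86 genes, 77 had a 95% interval inside 0.5 log2 in either direction with CVZ, 75 with COR and 79 with ALD. The median half-width was 0.16 for CVZ.

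The complexes differed little in their medians. The median with CVZ was 0.10 for the core and 0.10 for the accessory subunits of complex I, 0.09 for complex II, 0.10 for complex III, 0.07 for complex IV, 0.09 for complex V and 0.13 for the assembly factors. With COR the same order gave 0.03, 0.07, 0.01, 0.03, -0.01, 0.04 and 0.16, and with ALD 0.09, 0.11, 0.09, 0.05, 0.02, 0.07 and 0.13. Complex IV had the lowest median with each ligand and the assembly factors the highest. Differences between complexes were not tested.

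**Figure D2:**
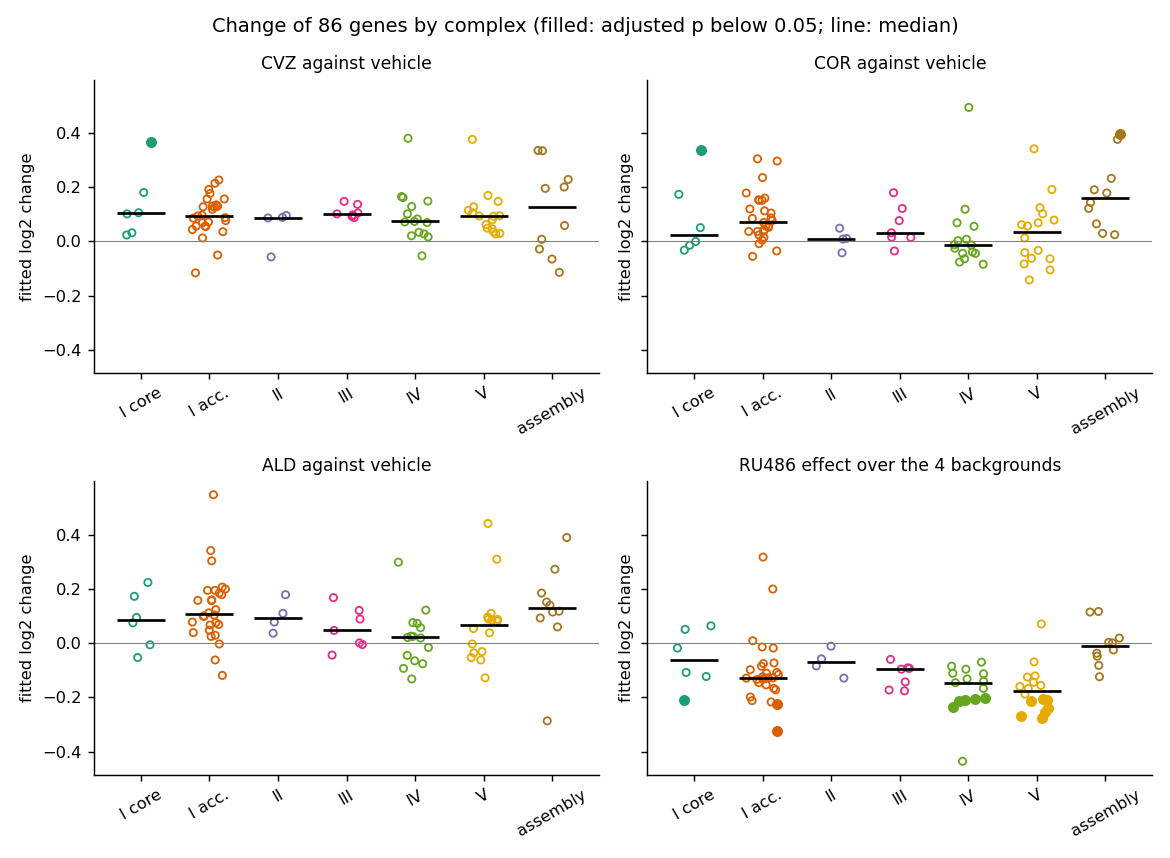
Fitted log2 change of each of the 86 genes (vertical axis) by complex (horizontal axis) with CVZ, COR, ALD and RU486, 1 point per gene, filled where the adjusted p was below 0.05, with a line at each median. A single filled point stands out with CVZ and 2 with COR, while the 15 filled points with RU486 are mostly in complexes IV and V.

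In complex I, the gene called with CVZ was Ndufs7, a core subunit that holds the iron-sulfur cluster next to ubiquinone. Its signal in the first experiment was 66.1 with vehicle, 83.8 with CVZ, 74.7 with COR and 76.3 with ALD. In the second these were 57.4, 75.3, 81 and 67.9, and with RU486 it was 76 alone, 69.1 with CVZ, 74.3 with COR and 72.7 with ALD. Both vehicle arrays were thus the lowest of all 12, and the array with RU486 alone was within the range of those with a ligand. Ndufs7 rose by 0.37 ± 0.09 (SE, 95% interval 0.18 to 0.55) with CVZ (limma, adjusted p = 0.0125) and by 0.34 ± 0.09 with COR (adjusted p = 0.0411), and its change with ALD was 0.22 (adjusted p = 0.4). The call with CVZ was lost with quantile normalization and without the CVZ array of either experiment or the vehicle array of the second. The call with COR was lost under all 3 other scalings and without the vehicle or CVZ array of either experiment or the COR array of the second.

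The other gene called was Ndufaf4, an assembly factor of complex I. Vehicle gave 23.5 and 21.8 in the 2 experiments, CVZ 26.9 and 30.3, COR 27.1 and 32.8, and ALD 25.3 and 29.5. With RU486 it was 25.9 alone and 26.4, 27.6 and 26.9 with CVZ, COR and ALD. Again both vehicle arrays were the lowest of the 12. Ndufaf4 rose by 0.40 ± 0.10 with COR (limma, adjusted p = 0.0453), with 0.34 for CVZ (adjusted p = 0.0609). Leaving out a CVZ or COR array of either experiment, or the vehicle array of the second, ended the call with COR.

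Without the vehicle array of the first experiment, 5 genes were called with CVZ: Ndufs7 and, in addition, Ndufaf4, Ndufa1, Ndufb4 and Ndufs6 (log2 changes of 0.50, 0.27, 0.30 and 0.33). Without the vehicle array of the second experiment, Atp5me, the e subunit of ATP synthase, was called with all 3 ligands, at 0.70, 0.67 and 0.77. Its 2 vehicle arrays were at 64.2 and 78.2 and its ligand arrays at 77 to 113, and with all arrays its changes were 0.38, 0.34 and 0.44 (adjusted p = 0.102, 0.233 and 0.184). The ALD change of Ndufb8, an accessory subunit of complex I, was 0.55 (adjusted p = 0.151), with 22.8 and 35.5 on the ALD arrays against 18.6 and 20.3 with vehicle, and it was called without the ALD array of the first experiment or a CVZ array of either. Ndufb4 was called with ALD when the vehicle array of the first experiment was left out. These genes were named after their values were seen.

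None of the other genes among the 2 brightest of each group was called with a ligand. The core subunits Ndufv2 and Ndufs1, which sit at the NADH end of complex I, had signals of 124 to 170 and of 75 to 107 over the 12 arrays. Of the accessory subunits, Ndufb9 lay at 190 to 259 and Ndufa1 at 167 to 209, and the assembly factor Sdhaf1, which serves complex II, at 27.2 to 40.5. All 4 subunits of complex II, the one complex shared with the citric acid cycle, had changes that did not pass with any ligand. Sdha, the flavoprotein that oxidises succinate, gave 136, 138, 131 and 144 with vehicle, CVZ, COR and ALD in the first experiment and 128, 142, 135 and 140 in the second. Sdhb, the iron-sulfur subunit, and Sdhc and Sdhd, the membrane anchors, had CVZ changes of 0.09, -0.06 and 0.10, and the ligand changes of the 4 subunits ran from -0.06 to 0.18. Another probe set for Sdhd gave 0.14 with CVZ.

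In complex III, Uqcrc2, a core protein, lay at 215 to 243 in the first experiment and 146 to 170 in the second, and Uqcr10, a small subunit, at 216 to 230 and 167 to 208. Neither group of 4 overlapped the 8. None of the 7 complex III genes was called with a ligand, with CVZ changes of 0.09 to 0.15.

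The isoform pairs of complex IV had small changes, none of them called with a ligand. Cox6a2, the heart and muscle isoform, had log2 changes of 0.02 with CVZ, -0.06 with COR and -0.09 with ALD, beside 0.07, 0.01 and 0.06 for Cox6a1, the general form. Cox8b, the heart and muscle form in rodents, had 0.03, -0.08 and 0.02, beside 0.13, 0.00 and 0.07 for Cox8a (limma, adjusted p of 0.348 or more for these 4 genes). Cox7a1, another heart and muscle isoform, was dim here, with 1.44 and 2.92 on the vehicle arrays, and its change of 0.38 ± 0.27 with CVZ did not pass. Cox4i1, the main form of the subunit, had 0.03, -0.04 and -0.13, and Cox7a2l, which helps complexes III and IV join into supercomplexes, 0.15, 0.12 and 0.12. The differences between isoforms were not tested.

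In complex V, Atp5f1b, the catalytic beta subunit, had 294 and 282 with vehicle, 288 and 307 with CVZ, 261 and 260 with COR, and 269 and 258 with ALD. Its changes were 0.05 with CVZ, -0.14 with COR and -0.13 with ALD (limma, adjusted p = 0.781, 0.349 and 0.587), and under cyclic loess normalization the COR change of -0.22 was called. Atp5f1c, the gamma subunit of the rotor, lay at 211 to 292. Atp5if1, the inhibitor that stops the enzyme from running backwards, gave 62.2 and 45.5 with vehicle and 73.9 and 58.9 with ALD, a change of 0.31 ± 0.08 that missed the threshold (adjusted p = 0.122).

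RU486 was the treatment with the most calls among these genes, but the counts are not on equal terms. The median SE of the 86 genes was 0.054 for RU486 averaged over backgrounds. It was 0.076 for each ligand and 0.097 for RU486 alone against vehicle. Averaged over the 4 backgrounds (vehicle, CVZ, COR and ALD), 15 of the 86 genes fell and none rose. This is 17.4%, against 2.16% of all tested probe sets that fell and 4.02% called in either direction. Among the 328 probe sets of similar signal 43 fell (13.1%) and 8 rose. That set covers signals of 58.1 to 163. Of the 15 genes, only Ndufa7, Atp5mpl, Ndufb11, Atp5f1e and Ndufv2 had a mean inside that range, and the others were brighter. Examples are Atp5f1b, Cox6a2 and Cox4i1, with mean signals of 261, 232 and 231. The 2 shares are thus not matched in signal for most of the genes that fell. The median change was -0.12 for the 86 genes, -0.08 for those of similar signal and 0.01 for all tested, and 75 of the 86 changes were negative.

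The arrays with RU486 were also the brightest before scaling, by the inferred medians given above, and the sums of cardiomyocyte and smooth muscle markers were lower on them (1850 to 2070 against 2070 to 2330, and 24.6 to 28.9 against 32.4 to 35.8). The Gapdh ratio was higher on all 4 of them, as given above. Of the 10 cardiomyocyte markers 4 fell (Myl2 by 0.30, Tnni3 by 0.21, Myh6 by 0.20 and Pln by 0.17), as did Tagln among 5 smooth muscle markers, by 0.50, and Kdr among 4 tested endothelial markers, by 0.91. None of 9 fibroblast markers was called. The part of brightness, RNA integrity or cell makeup in the falls was not tested. With quantile normalization 1 of the 15 falls was called, with cyclic loess none and with trimmed-mean scaling 17, at medians of -0.03, -0.04 and -0.12, where those of similar signal had 0.00, 0.00 and -0.08.

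**Figure D3:**
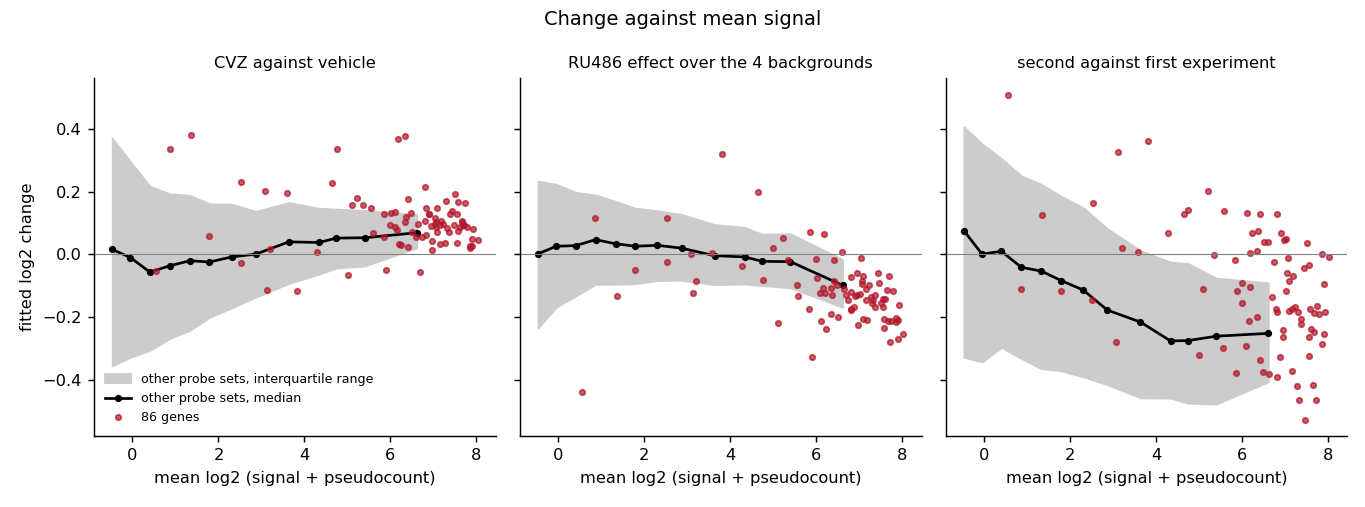
Fitted log2 change (vertical axis) against mean log2 signal (horizontal axis) for CVZ, for RU486 and for the second against the first experiment. Red points are the 86 genes, and the black line and grey band are the median and interquartile range of all other tested probe sets in 13 ranges of signal. In the brightest range the median with RU486 was -0.10 for the 394 other probe sets and -0.13 for the 64 genes that lie there, and with CVZ 0.07 and 0.09.

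Most of the falls lay in the last 2 complexes: 7 of 16 genes of complex V and 5 of 15 of complex IV, with 2 of 28 accessory and 1 of 6 core subunits of complex I. None of the genes of complex II (4), complex III (7) or of the assembly factors (10) was called. Medians were -0.18 for complex V, -0.15 for complex IV, -0.13 and -0.06 for the accessory and core subunits of complex I, -0.10 for complex III, -0.07 for complex II and -0.01 for the assembly factors. The difference between complexes was not tested, and the assembly factors include dim genes. Complexes V and IV held the brightest members, such as Atp5f1b, Atp5f1c, Cox6a2 and Cox4i1 (mean signals of 261, 243, 232 and 231). Other probe sets also fell more with RU486 in the brightest range of signal (median -0.10) than in the next (-0.02). The part of signal in the order of the complexes was not tested.

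Among the 7 of complex V was Atp5po, the stalk subunit that holds the catalytic head still (also called OSCP). Its signals in the second experiment were 187, 213, 224 and 186 with vehicle, CVZ, COR and ALD, and 174, 162, 164 and 166 with RU486 added to each. The 2 sets of 4 did not overlap. Its fall was 0.28 ± 0.06 on the log2 scale (limma, adjusted p = 0.0109), and within the backgrounds the differences were -0.10, -0.40, -0.45 and -0.16. The call was lost without the CVZ or COR array, with or without RU486. In the first experiment, which had no RU486, it lay at 273 to 292, well above either set.

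Atp5mk, a small membrane subunit needed for rows of dimers, gave 242, 241, 255 and 222 without RU486 and 206, 200, 194 and 194 with it. It fell by 0.27 ± 0.04 (adjusted p = 0.00236) and was the single one of the 15 whose call survived the loss of any 1 array. Atp5f1b, described above, gave 282, 307, 260 and 258 without and 248, 228, 221 and 230 with RU486, a fall of 0.25 ± 0.04 (limma, adjusted p = 0.00354). Atp5mpl, another small membrane subunit, gave 77.6, 79.2, 84.1 and 83 without and 73.5, 66.3, 67.6 and 67.4 with RU486, a fall of 0.24 ± 0.06 (adjusted p = 0.025). The call of Atp5f1b was lost without the CVZ array with or without RU486, and that of Atp5mpl also without either COR array or that with ALD and RU486. For all 3 genes the arrays with RU486 lay below all those without. The other 3 of complex V were Atp5f1a, the alpha subunit, Atp5mc3, which encodes the membrane ring, and Atp5f1e, the epsilon subunit, with falls of 0.21, 0.21 and 0.20.

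In complex I the largest fall of the 15 was that of Ndufa7, an accessory subunit. It gave 65.2, 61.6, 67.4 and 55.5 without RU486 and 54.1, 47.1, 48 and 49.7 with it, which do not overlap but come close between ALD and RU486 alone. Its fall was 0.33 ± 0.08 (limma, adjusted p = 0.0339), and the call was lost under all 3 other scalings and without the vehicle, CVZ or COR array of the second experiment or any array with a ligand and RU486. Ndufb11, an accessory subunit of the membrane arm, fell by 0.22 and Ndufv2 by 0.21. The 5 genes of complex IV were Cox6b1, Cox6a2, Cox6c, Cox5b and Cox4i1, with falls of 0.24, 0.21, 0.21, 0.21 and 0.20. A larger difference, -0.44 ± 0.19, belonged to Cox6c-ps1, a pseudogene by its symbol and dim, and did not pass (adjusted p = 0.272). Probe sets for Cox6c and this copy may pick up each other's RNA.

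**Figure D4:**
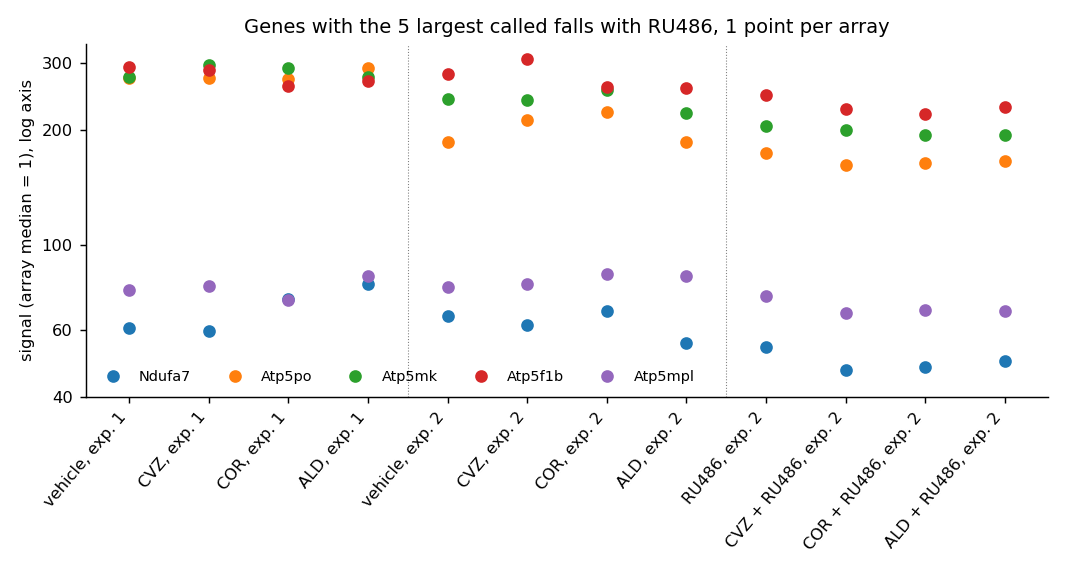
Signal on each of the 12 arrays (vertical log axis, array median = 1) of the genes with the 5 largest called falls with RU486, 1 point per array, by group and experiment. Each gene is to be followed across arrays and not set against another gene. In the second experiment every array with RU486 lies below every array without it for all 5, for example 162 to 174 against 186 to 224 for Atp5po.

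In the second experiment 28 of the 86 genes (32.6%) had all 4 arrays with RU486 below all 4 without, and none had them all above. The same held for 18.9% of the probe sets of similar signal and 3.6% of all. The set of similar signal ended at a mean of 163, below the brightest of the 86 genes. Between RU486 alone and vehicle the median within the second experiment was 0.03 (0.07 for those of similar signal). It was -0.21 on top of CVZ, -0.17 on top of COR and -0.16 on top of ALD (-0.13, -0.11 and -0.14 for those of similar signal).

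Accordingly, none of the 86 genes was called for RU486 against vehicle in limma, against 0.129% of all, with a median of -0.02 and 7 genes at an unadjusted p under 0.05. For the ligands on top of RU486 none was called either, against 0% of all tested, with a median of -0.08 (-0.07 for those of similar signal) and 2 genes at an unadjusted p under 0.05. The interaction, the ligand response with RU486 minus that without it, called none, against 1.09% of all. Its median was -0.14 for the 86 genes and -0.14 for those of similar signal, 84 of the 86 were negative, and 12 had an unadjusted p under 0.05. Without the vehicle array of the first experiment 1 gene, Ndufb4, was called for the interaction. These comparisons rest on groups of 1 array, whose spread was taken from the others.

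The count of calls with RU486 changed with single arrays. Leaving out 1 array at a time gave 1 to 25 called falls: 25 without the vehicle array of the first experiment, 2 without the CVZ and 4 without the COR array of the second, 1 without the array with CVZ and RU486, and 8 without that with COR and RU486. In an additive model of ligand and RU486 on the second experiment alone, chosen after the data were seen, none of the 86 was called at the same median of -0.12, and 25 of all tested probe sets (2 falls and 23 rises) were.

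The promoters were searched for the motifs of factors known to drive nuclear respiratory genes, as a description of the genes that were called with RU486. RefSeq promoters of rat (GRCr8, 250 bases before to 50 after the start) matched 82 of the 90 genes. The sequences shown are the stretches around a motif in 4 of the genes that fell, 2 with an NRF1 match and 2 with a GABP (ETS family) match, 5′ to 3′ on the gene's strand, with the match in capitals. They come from chr11:44657493-44657582 (minus strand) for Atp5po, chr6:136845651-136845740 (minus) for Atp5mpl, chr1:255922059-255922145 (minus) for Atp5mk and chr9:46417783-46417836 (plus) for Cox5b. All lie upstream of the start, with the match beginning 59, 60, 58 and 14 bases before it.
Atp5po: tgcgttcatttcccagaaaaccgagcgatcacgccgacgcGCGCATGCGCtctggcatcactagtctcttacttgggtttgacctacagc
Atp5mpl: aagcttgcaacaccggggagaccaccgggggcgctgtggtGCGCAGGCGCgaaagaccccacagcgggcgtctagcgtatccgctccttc
Atp5mk: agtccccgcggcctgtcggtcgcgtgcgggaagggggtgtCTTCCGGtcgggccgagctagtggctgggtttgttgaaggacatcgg
Cox5b: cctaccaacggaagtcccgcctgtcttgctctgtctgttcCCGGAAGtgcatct

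Motifs were searched on both strands, and the capitals in Atp5mk are the GABP motif read on the opposite strand. The NRF1 motif, searched as GCGCA, any base and GCGC in a row, was found in 17 of the 82 promoters (20.7%), against 10.8% of the promoters of genes tested on the array and 4.71% of all 27457. The GABP motif CCGGAAG was found in 25 (30.5%, against 19.0% and 9.22%), and the YY1 motif, AAGATGG followed directly by CGGC, in 9 (11.0%, against 2.08% and 0.798%). TNAAGGTCA, the motif of the estrogen-related receptors, was in 3 (3.66%, against 0.533% and 1.15%). The full glucocorticoid receptor motif, AGAACA and TGTTCT with 3 bases between, was in none, as in 0.00728% of all, and AGAACA alone, which is contained in it, was in 9 (11.0%, against 11.9% and 20.1%). Of the 15 genes that fell with RU486, 14 had a promoter, of which 3 held the NRF1, 4 the GABP 1 the estrogen-related receptor motif and 2 AGAACA, with 0 for the YY1 and the full glucocorticoid receptor motif. A match is a string of letters and says nothing on binding in these cells.

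The other genes of the same machinery, from lists assembled beside the members, had few calls with the ligands. Among 24 tested companions of the chain (cytochrome c1, carriers, porins, creatine kinase, and genes of coenzyme Q synthesis, electron transfer flavoprotein and cristae), 2 rose with CVZ and 1 with COR, none changed with ALD, and 5 fell with RU486, with medians of 0.05, 0.04, 0.04 and -0.11. Over all tested probe sets 4.77% rose with CVZ, 2.44% rose with COR, 0.95% were called with ALD and 2.16% fell with RU486. The rises among the companions were those of Ckmt2 and Slc25a4. Ckmt2 is the sarcomeric mitochondrial creatine kinase that passes the phosphate of ATP on to creatine, and Slc25a4 the ADP/ATP carrier of heart. Ckmt2 gave 15.7 and 9.66 with vehicle, 29 and 18.7 with CVZ, 21.4 and 13.6 with COR, 17.5 and 12.4 with ALD, and 9.31 to 10 on the 4 arrays with RU486. Within each experiment every ligand array was above vehicle, CVZ the highest. It rose by 0.92 ± 0.11 with CVZ (limma, adjusted p = 2.24e-05) and by 0.47 ± 0.11 with COR (adjusted p = 0.0203), and fell by 0.45 with RU486 (adjusted p = 0.0023). Its call with COR was lost without any 1 of the vehicle and COR arrays, and that with RU486 without the array with CVZ and RU486.

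Slc25a4 rose by 0.22 with CVZ, a call lost under all 3 other scalings and without a vehicle or CVZ array or the ALD array of the first experiment. The falls with RU486 besides Ckmt2 were those of Slc25a3, the phosphate carrier, Slc25a4, Slc25a5, another ADP/ATP carrier, and Vdac3, a porin, by 0.25, 0.25, 0.21 and 0.18. These 4 lay in the brightest range of signal, where the median of other probe sets with RU486 was -0.10. With quantile or cyclic loess normalization, or with no filter, the calls of these 4 were lost. They were also lost without the array with CVZ and RU486. Those of Slc25a3, Slc25a5 and Vdac3 were also lost without the CVZ array of the second experiment, those of Slc25a5 and Vdac3 without its COR array, and that of Vdac3 without any of 7 more arrays.

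None of 28 assembly factors outside the chosen symbols and none of 15 citric acid cycle genes was called with a ligand or with RU486. Their medians were 0.08 and 0.05 with CVZ, 0.06 and 0.04 with COR, 0.08 and 0.08 with ALD, and 0.01 and -0.04 with RU486.

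Among 24 regulators of mitochondrial genes, 2 rose and 2 fell with CVZ, 1 rose with COR and 1 with ALD, and 2 rose and 1 fell with RU486. Over all tested probe sets 4.77% rose and 3.19% fell with CVZ, and 1.85% rose and 2.16% fell with RU486. With COR 2.44% of all rose, and with ALD 0.87%. Ppargc1a, a coactivator that drives the making of mitochondria, rose with each ligand. It gave 11.1 and 11.5 with vehicle, 20.8 and 22.5 with CVZ, 23.2 and 22.3 with COR, 15.8 and 17.9 with ALD, and 13.2 to 15.1 on the 4 arrays with RU486. The ligand arrays without RU486 were above all others. The rises were 0.94 ± 0.10 with CVZ, 1.00 ± 0.10 with COR and 0.57 ± 0.10 with ALD (limma, adjusted p = 1.36e-05, 1.35e-05 and 0.0105), and the interaction with RU486 was -0.80 (adjusted p = 0.0107). Beside these, the median change of the respiratory genes was 0.09 with CVZ. Leaving out the vehicle or ALD array of the second experiment ended the call of Ppargc1a with ALD, and leaving out the array with CVZ and RU486 ended that of the interaction.

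With CVZ, Polg, the catalytic subunit of the mitochondrial DNA polymerase, rose by 0.68, while Ppargc1b, a relative of Ppargc1a, fell by 0.65 and Esrrg, an estrogen-related receptor, fell by 0.39 (limma, adjusted p = 0.0242, 0.0262 and 0.0332). With RU486 Polg2, the accessory subunit of that polymerase, rose by 0.68, Esrrg rose by 0.31 and Ppargc1a fell by 0.34. These are averages over the backgrounds: Ppargc1a was at 13.9 with RU486 alone, against 11.1 and 11.5 with vehicle. Every one of these calls was lost when some single array was left out: those with CVZ without a CVZ array of either experiment or the vehicle array of the first, for Ppargc1b also without that of the second. With RU486 all 3 were lost without the CVZ array of the second experiment or that with COR and RU486. Esrrg and Polg2 were also lost without its vehicle or COR array, Esrrg and Ppargc1a without that with CVZ and RU486, Esrrg without that with ALD and RU486, Polg2 without RU486 alone and Ppargc1a without ALD. Signals were low for both polymerase genes: Polg lay at 2.17 to 4.02 and Polg2 at 1.67 to 4.81 on the 12 arrays.

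The last comparison was between the experiments. It had the most calls of the 8 comparisons: 39 of the 86 genes were lower in the second experiment and 4 higher, with 51 at an unadjusted p under 0.05. Of all tested probe sets 28.2% were lower and 10.7% higher (38.9% in all), and of those of similar signal 225 of 328 (68.6%) were lower and 26 (7.93%) higher. The median was -0.12 for the 86 genes, -0.26 for those of similar signal and -0.10 for all tested. This direction held only with division by the array median: with trimmed-mean scaling 33 of the 86 were higher and 12 lower, with quantile normalization 38 and 9 and with cyclic loess 46 and 5, at medians of 0.08, 0.10 and 0.14.

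**Figure D5:**
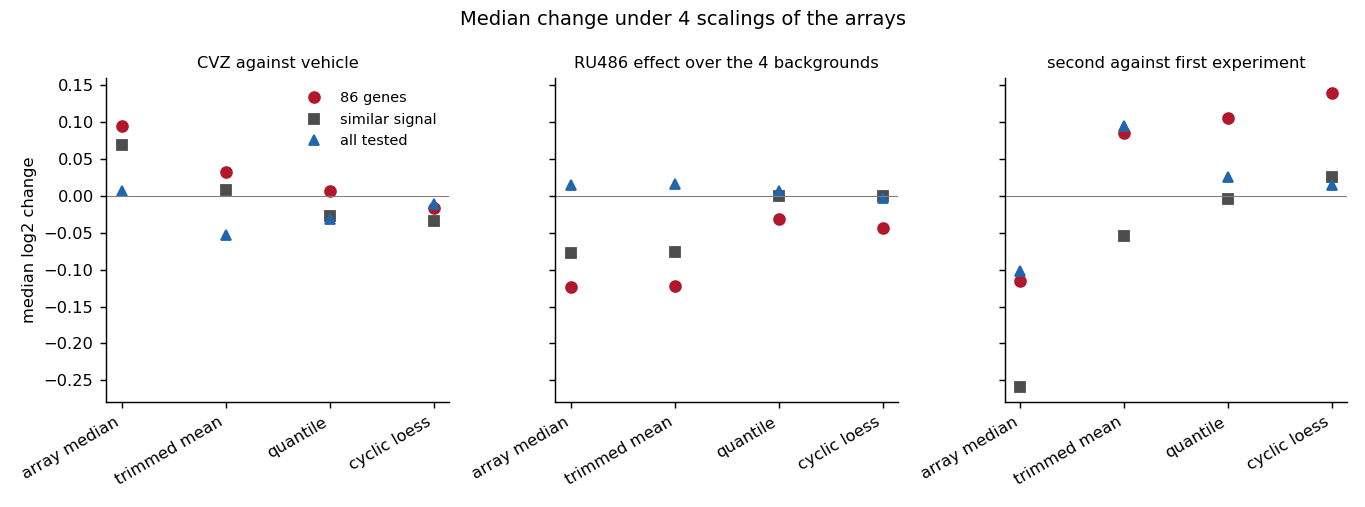
Median log2 change (vertical axis) of the 86 genes, of 328 probe sets of similar signal and of all tested probe sets under 4 scalings of the arrays (horizontal axis), for CVZ, RU486 and the second against the first experiment. The median of the 86 genes stays below 0 with RU486 (-0.12 to -0.03) but changes sign for the experiment (-0.12 with the array median and 0.08 to 0.14 with the others).

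Falls in the second experiment numbered 10 of 16 in complex V, 9 of 15 in complex IV, 5 of 7 in complex III, 1 of 4 in complex II, 11 of 28 and 1 of 6 among the accessory and core subunits of complex I, and 2 of 10 assembly factors. The 5 largest were those of Uqcrc2, by 0.53, Cox7c and Atp5po, by 0.46 each, Ndufb5, by 0.42, and Cox7b, by 0.42. Cox7c, a small subunit of complex IV, gave 196 to 211 in the first experiment and 131 to 158 in the second, and Cox7b, another, 238 to 263 and 167 to 198. Ndufb5, an accessory subunit of complex I, gave 186 to 206 and 126 to 147. For all 5 the experiments did not overlap. Without RU486, 32 of the 86 genes (37.2%) had all arrays of the second experiment below all of the first, against 61.3% of those of similar signal and 24.2% of all. Of the 43 called genes, these 5 kept call and direction on the probe set used under the other scalings, the pseudocounts, no filter, no trend and the loss of any 1 array. Another probe set for Uqcrc2 gave -0.61, while a dim one for Atp5po, with a mean signal of 0.948, gave 0.65.

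The 4 rises were those of Cox6c-ps1 (0.51), Ndufs4, an accessory subunit of complex I (0.36), Sdhaf4, an assembly factor of complex II (0.33), and Ndufs8, an iron-sulfur core subunit of complex I (0.20). Ndufs4 gave 10.2 to 11.7 in the first experiment and 10.9 to 21.8 in the second, which overlap. Ndufs8 gave 31.9 to 34.1 and 33.5 to 41.4. Each of the 4 calls was lost without 1 array or another: Sdhaf4 without a CVZ array, Ndufs4 without a COR or ALD array, Ndufs8 without any of these, and Cox6c-ps1 without a vehicle, COR or ALD array, of either experiment. All 9 fibroblast markers fell between the experiments, with a median of -1.31, and 4 of 10 cardiomyocyte markers fell and 1 rose, with a median of -0.10. Both tested red cell markers, 2 of 5 macrophage, 1 of 4 endothelial and 1 of 5 smooth muscle markers fell too, and 1 smooth muscle marker rose. Summed signals went from 85.8 to 125 down to 28.1 to 38.2 for red cells and from 8.68 to 9.93 down to 5.68 to 6.73 for macrophages. The macrophage sum was carried by Cd14 and Cd68. Over the 5 tested macrophage markers the median change was 0.03, and 60% of the changes were positive. The part of these cell types in the difference was not tested.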

How the data were processed

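Total RNA of 12 cultures was hybridised to 1-colour Affymetrix rat arrays. Per the submitters' processing notes, the deposited intensities are MAS5 signals. Every array's values have a median of 1, which was read from the files, so they had been divided by it. Scaling settings and software versions beyond this are not given in the sources used here. The number of arrays limits the precision, which also differed between probe sets. The median SE with RU486 was 0.054 for the 86 genes and 0.139 for all tested probe sets.

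Gene names came from the annotation of the array, brought up to current symbols (20832 with 1 symbol, 436 with several, 9831 with none). After 57 control probe sets were set aside, log2(intensity + 0.0696) was taken, the pseudocount being the 10th percentile of all values, so that changes of dim genes are understated. The 18625 probe sets with a mean above the 40th percentile (0.63 as signal) were tested with limma 3.58.1 in R 4.3.3 (lmFit, eBayes with a mean-variance trend), with 8 groups and the experiment as a block. Benjamini-Hochberg adjustment ran over all of them, with a threshold of 0.05. The residual degrees of freedom were 3, all from the groups without RU486, and the total with the prior 15.2. The 8 comparisons share arrays.

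The experiment numbers pair the arrays: deviations from group means correlated between the groups of an experiment at 0.512 to 0.567 in all 6 pairs. Named are genes past the threshold (the 5 largest each way where over 8), the 2 brightest of each complex, complex II and isoforms with a known contrast; from other lists, called genes. The scripts were tested on simulated data. Members, lists and rules were chosen with earlier results of these data known. Figures were drawn with matplotlib 3.10.9.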

Additional observations from a re-analysis of the deposited data

How the results depend on the processing

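Alternatives were 3 scalings of the arrays, 2 pseudocounts, no filter on low signals, no experiment block, no mean-variance trend, every probe set of every gene, symbols as annotated, and leaving out each array; an additive model on the second experiment was added after the data were seen. With the replicate block, which pairs the arrays of an experiment, 1, 2 and 15 genes were called with CVZ, COR and RU486. Without the replicate block the counts were 0, 0 and 0, and without the trend 0, 0 and 0. With quantile normalization they were 0, 1 and 1, with trimmed-mean scaling 1 with COR, with cyclic loess 0 with RU486, without the filter 0 with COR and 0 with RU486, and in the additive model 0 with RU486. The causes were not tested. Leaving out 1 array gave 0 to 5 calls with CVZ, 0 to 2 with COR, 0 to 1 with ALD, 1 to 25 with RU486 and 0 to 1 for the interaction, whose median ran from -0.195 to -0.107. Medians moved with the scaling. Under quantile normalization, trimmed-mean scaling and cyclic loess the experiment median of -0.116 turned to 0.105, 0.085 and 0.139, the interaction median of -0.136 went to -0.02, -0.061 and -0.016, and that of ligands on top of RU486 (-0.078) to 0, -0.05 and -0.022. The CVZ median of 0.094 went to 0.006 with quantile normalization and -0.017 with cyclic loess, the COR median of 0.052 to 0.003 with quantile normalization, 0.011 with trimmed-mean scaling and -0.017 with cyclic loess, and the ALD median of 0.08 to 0.009 with cyclic loess. Between the experiments 43 genes were called, and 16 without the trend. None of the 1, 2 and 15 calls was kept under every alternative, and 5 of the 43 were. Of the calls named from the other lists, Ppargc1a with CVZ was the single one that held without the replicate block, and without the trend Ppargc1a with CVZ and COR and Ckmt2 with CVZ held. The pseudocounts and the annotated symbols moved no count by over 1.5 times. Nor did counting every tested probe set of these genes (46 calls between the experiments), though the extra one for Atp5po went the other way. How far a probe set lies above background is not in the values used here.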

Other observations

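The mitochondrial ribosome translates the subunits of the respiratory chain that are encoded in the mitochondrion itself. Of 73 tested genes for its proteins, 2 rose with CVZ, 1 rose with COR, none was called with ALD and 1 fell with RU486, with medians of 0.05, 0.08, 0.13 and -0.06. Of all tested probe sets 4.77% rose with CVZ, 2.44% rose with COR and 2.16% fell with RU486. Mrpl15, a protein of the large subunit, gave 42.4 and 35.5 with vehicle in the 2 experiments, 66.4 and 62.3 with CVZ, 59.6 and 51.6 with COR, 48.8 and 49.5 with ALD, and 39.7 to 43 on the 4 arrays with RU486. All 6 ligand arrays without RU486 were above the other 6. It rose by 0.73 ± 0.09 with CVZ and by 0.51 ± 0.09 with COR (limma, adjusted p = 2.97e-05 and 0.00201), and the ligand response of Mrpl15 was smaller with RU486 by an interaction of -0.57 (adjusted p = 0.0316).

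The CVZ rise of Mrpl15 was called without any 1 array, while that with COR was lost without the COR array of the first experiment. The interaction was lost without the CVZ array of either experiment, the COR array of the first, the vehicle array of the second or the array with CVZ and RU486, and also with quantile or cyclic loess normalization. Mrpl14 rose by 0.44 with CVZ (adjusted p = 0.0406), a call lost without a vehicle, CVZ or COR array of either experiment. With RU486 Mrpl41 fell by 0.30 (adjusted p = 0.0069), from 35.7 to 42.3 without it in the second experiment to 29.1 to 34 with it, which do not overlap, and the call was lost without the CVZ array of that experiment, with or without RU486. Between the experiments 28 of the 73 were lower in the second and 4 higher, with a median of -0.13, against 28.2% lower and 10.7% higher of all tested. This was not computed under the other scalings, which turned the direction of the respiratory genes.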
